A study of Mus musculus with 37 samples.

Results

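The 44 genes described here encode proteins of the sarcomere and of excitation-contraction coupling in skeletal and cardiac muscle. They were taken by name from a list of muscle genes that was drawn up with earlier results of these data known, and were looked up among the 48795 genes counted in the mouse hippocampus. The question asked of them was whether a muscle programme, or only some of its genes, was upregulated after loss of the histone demethylase Kdm1a (Lsd1) from forebrain neurons. Poly-A RNA of the hippocampus was sequenced from 3 control mice and 3 Kdm1a-ifKO mice, all male and C57BL/6J, with 1 library per mouse. Kdm1a-ifKOs carried floxed Kdm1a alleles (f/f) and the Camk2a-creERT2 transgene and had received tamoxifen in 5 administrations at 8 weeks of age. Controls were Kdm1a f/f littermates without creERT2 that received the same tamoxifen. The Camk2a promoter limits the recombinase to principal neurons of the forebrain, so the glial, vascular and other cells in the tissue keep Kdm1a. The age at dissection for these libraries is not given in the sources used here. A further library, of CTCF ChIA-PET, mapped DNA loops in sorted nuclei of Camk2a-expressing neurons of tamoxifen-treated animals with intact Kdm1a and a nuclear Sun1/sfGFP tag.

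In striated muscle, myosin heavy and light chains form the thick filament, which pulls on actin in the thin filament when calcium binds troponin. Calcium comes from the sarcoplasmic reticulum through ryanodine receptors, which junctophilins hold against the voltage sensors of the cell membrane, and is pumped back by the SERCA ATPases. Several of these proteins also work outside muscle: neurons use ryanodine receptors and SERCA2 for calcium stores in the endoplasmic reticulum, and Myh14 encodes a nonmuscle myosin II heavy chain. The list therefore mixes genes that are restricted to muscle with genes that the brain uses.

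Sequencing gave between 18985542 and 19469947 counts per library. Kdm1a itself fell from 80.1 ± 0.897 CPM (CPM being counts scaled to a fixed TMM-normalized library size, SD, n = 3) in controls to 38.2 ± 1.23 CPM after deletion (SD, n = 3), with log2FC -1.07 (SE 0.0559, adjusted p = 6.24e-08, edgeR). In bulk tissue, fewer cells of a type and less RNA per cell cannot be told apart, for this gene as for all genes below. A pair of libraries stood apart from the rest. Kdm1a-ifKO replicate 2 had more RNA of vascular and meningeal cells, with 353 CPM summed over 13 markers of smooth muscle and pericytes against 258 to 267 CPM in the other 5 libraries. Control replicate 3 had more Ryr2 and Ryr3 than any other library, though not more Ryr1. It was also highest for other genes, among them Ttn, Grin2b, Cacna2d1 and Itpr1 (487 CPM against 270 to 348 CPM in the other 5 libraries). Values without control replicate 3 are given for Ryr2 and Ryr3, and without Kdm1a-ifKO replicate 2 for Jph2, Flnc and the called members.

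A broad muscle programme was not detected, whereas a few of the listed genes rose. Of the 44 genes, 31 passed the filter on low counts and were tested, and 13 had between 0 and 62 counts over all 6 libraries (median 22) and were not. With edgeR's quasi-likelihood test and Benjamini-Hochberg adjustment over 16799 genes, 4 of the 31 were upregulated at an adjusted p under 0.05. They were Ryr1, the calcium release channel of skeletal muscle, Jsrp1, a protein of the junctional sarcoplasmic reticulum, Mybpc2, the fast skeletal form of myosin-binding protein C, and Myh14. This was 12.9% of the tested members, beside 6.04% of all tested genes called higher. None of the 31 was called lower, beside 2.82% of all tested genes. DESeq2 called none lower either, beside 3.06% of the genes it adjusted. At an unadjusted p under 0.05 in edgeR, 7 tested members were higher and 3 were lower (Atp2a2, Neb and Myh8). The share of all tested genes at this unadjusted threshold is not given here, so nothing more is read from these counts. With a log2FC over 1 only Mybpc2 was called, beside 1.36% of all genes. The log2FC was above 0 for 20 of the 31 tested members (64.5%), beside 49.1% of all tested genes, and their median log2FC was 0.17, beside -0.003 over all genes. Members enter the test only with enough counts, so these figures describe the tested members and not the whole list. Mybpc2, with 3, 4 and 10 counts in controls, passed the filter through its Kdm1a-ifKO libraries, where it is high. It is counted in each of the figures for higher members, so these lean upward by the filter itself.

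**Figure D1:**
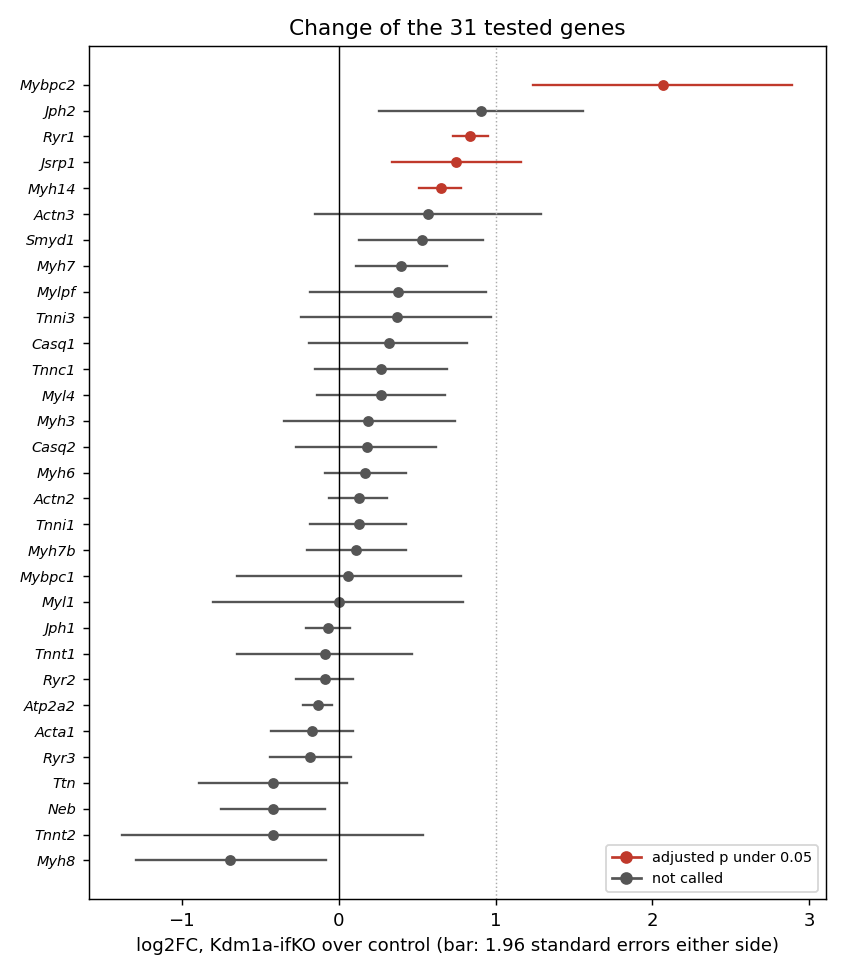
Log2 fold change of Kdm1a-ifKO over control (x axis) for the 31 tested genes, ordered by size, with bars for an approximate 95% interval from the standard error of the fit. Red marks the 4 genes with an adjusted p under 0.05, and the dotted line marks a log2FC of 1, which Mybpc2 alone passes with its whole interval.

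For 23 of the 27 tested members that were not called, the approximate 95% interval of the log2FC lay within 1 of 0. It reached beyond 1 for Jph2 and Actn3, and below -1 for Myh8 and Tnnt2, which had few counts or a wide spread between mice. Libraries of the same genotype differed by more than counting error, since a chi-square test of their counts gave 2.95 to 7.59 per degree of freedom. The highest values, 7.59 and 6.56, were those of control replicate 3 against the other controls.

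Levels of the members, compared between genes as TPM (counts divided by exon length and scaled to the same sum in every library), ranged from 0 to 594. In controls 26 members reached 1 TPM, and 15 stayed below 1 TPM in both genotypes. Atp2a2, which encodes SERCA2, stood far above the rest at 594 ± 20.4 TPM (SD, n = 3) in controls. Ryr2 with 47.3 ± 6.66 TPM and Jph1 with 37.3 ± 3.00 TPM (SD, n = 3) came next, and Ryr3 (22.8 ± 4.53), Myh14 (22.1 ± 1.91) and Actn2 (20.4 ± 1.88) lay within each other's spread. Acta1 followed at 15.4 ± 0.752 TPM, and Ryr1 at 9.81 ± 0.0763 TPM (SD, n = 3). Summed over all 44 members, the level was 799 to 856 TPM in controls and 800 to 806 TPM in Kdm1a-ifKOs, so that the genotypes overlapped. Atp2a2 alone made up 69.9% of the members' mean TPM over the 6 libraries, so this sum mostly follows Atp2a2. The 36 members outside these 8 summed to 53.2 to 57.7 TPM in controls and to 66.0 to 73.9 TPM in Kdm1a-ifKOs, and here the groups did not overlap. The called genes Jsrp1 and Mybpc2 are among these 36.

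**Figure D2:**
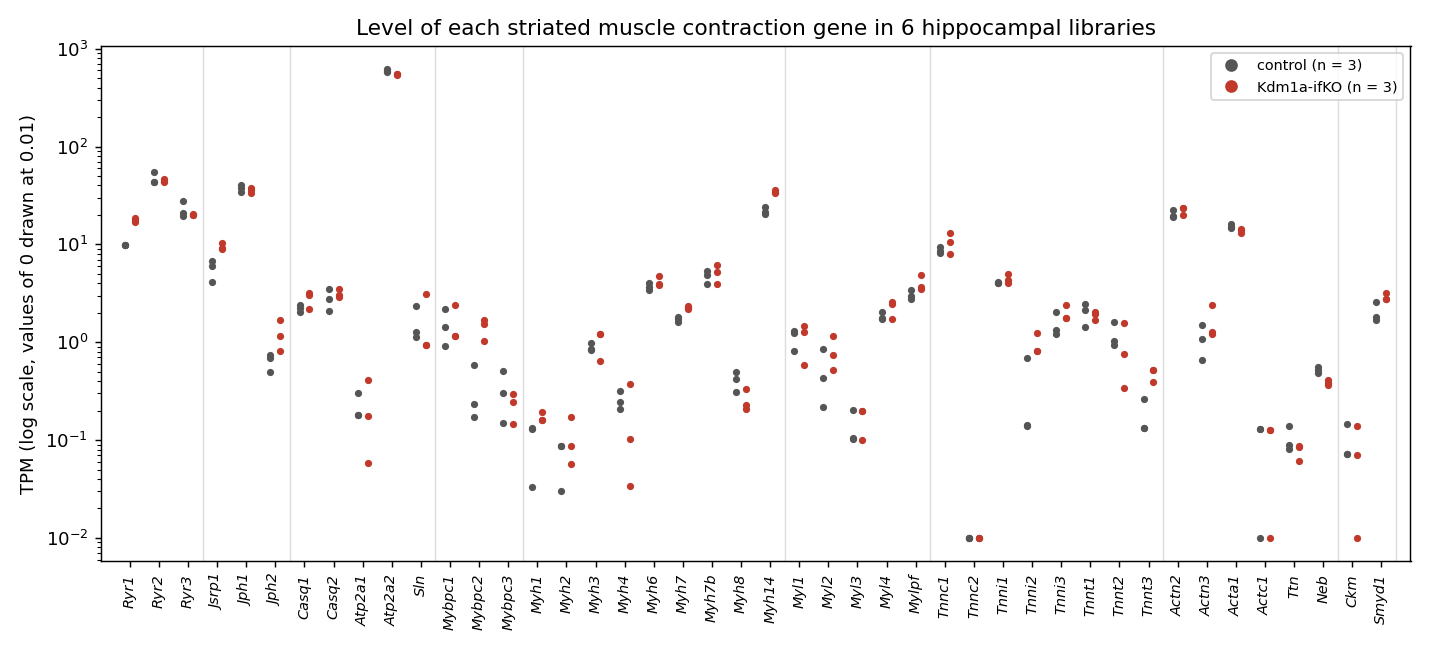
Level of each of the 44 genes in TPM (y axis, log scale, values of 0 drawn at 0.01), grouped by role, with a point for each of the 3 control (grey) and 3 Kdm1a-ifKO (red) libraries. Atp2a2 sits near 594 TPM in controls, whereas most troponins and fast myosins lie near or below 1 TPM in both genotypes, and Tnnc2 is at 0 in all 6 libraries.

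Among the calcium release channels, Ryr1 was upregulated and the 2 other ryanodine receptors were not called. Ryr1 (ENSMUSG00000030592, GRCm38, chromosome 7 from 29003344 to 29125179, minus strand) had 1036, 1022 and 1003 counts in controls and 1964, 1805 and 1898 in Kdm1a-ifKOs. Every Kdm1a-ifKO library lay far above the controls, which differed little from each other. The mean rose from 53.9 ± 0.260 to 96.7 ± 4.72 CPM (SD, n = 3), a 1.79-fold change with a log2FC of 0.84 (SE 0.0561, adjusted p = 6.36e-07, edgeR). With any of the 6 libraries left out, its log2FC stayed between 0.81 and 0.88, with an adjusted p of at most 1.94e-05. Ryr1 is overlapped on the opposite strand by the low-count gene Gm26604, with 6, 11 and 8 counts in controls and 23, 22 and 12 in Kdm1a-ifKOs (log2FC 1.13, adjusted p = 0.0837). The strand setting of the counting is not given in the sources used here, so reads of this antisense gene and of Ryr1 may be mixed. The part of antisense reads in the counts of Ryr1 was not tested.

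Ryr2, the main ryanodine receptor of the heart and of brain, had 6033, 5955 and 7437 counts in controls and 6530, 6124 and 6239 in Kdm1a-ifKOs. The groups overlapped, and the log2FC was -0.09 (SE 0.0908, adjusted p = 0.609). Ryr3, which neurons express at lower levels, had 1890, 1778 and 2492 counts in controls and 1864, 1873 and 1892 in Kdm1a-ifKOs, with a log2FC of -0.18 (SE 0.133, adjusted p = 0.469). Without control replicate 3, which was highest for both, the log2FC was 0.04 for Ryr2 and 0.0 for Ryr3. Expressed as a share of the summed TPM of the 3 receptors, Ryr1 made up 13.3%, 13.5% and 10.5% in controls and 21.7%, 21.0% and 21.5% in Kdm1a-ifKOs. The share was higher in all 3 Kdm1a-ifKOs than in any control, with an exact two-sided permutation p of 0.1, the smallest that 3 mice against 3 can give. It holds the same Ryr1 counts as the call above and is no separate evidence of the rise.

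Of the 3 junctional proteins, 1 was called. Jsrp1 (ENSMUSG00000020216, GRCm38, chromosome 10 from 80808496 to 80813498, minus strand), which binds the calcium channel machinery of the triad, had 38, 43 and 26 counts in controls and 67, 60 and 59 in Kdm1a-ifKOs. It rose from 1.88 ± 0.440 to 3.17 ± 0.235 CPM (SD, n = 3), with a log2FC of 0.75 (SE 0.209, adjusted p = 0.0412, edgeR). This was the least stable of the 4 calls: it was lost in 7 of 12 alternatives, DESeq2 among them (adjusted p = 0.11), with the log2FC between 0.58 and 0.90 when a library was left out. The call was lost without any one of the 3 Kdm1a-ifKO libraries or without control replicate 1 or 3, with an adjusted p of up to 0.129. Jph2, the junctophilin of the heart, had 14, 15 and 10 counts in controls and 17, 35 and 24 in Kdm1a-ifKOs. Its groups did not overlap, but with a log2FC of 0.91 (SE 0.331) it missed the threshold (adjusted p = 0.108), and its highest value was in Kdm1a-ifKO replicate 2. Without that library the log2FC was 0.61 (adjusted p = 0.338, edgeR). Jph1, the skeletal muscle junctophilin, had 820, 895 and 945 counts in controls and 911, 825 and 880 in Kdm1a-ifKOs, which overlapped (log2FC -0.07, SE 0.0726, adjusted p = 0.598).

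The genes for calcium storage and uptake were not called. Atp2a2 had 16743, 17277 and 17588 counts in controls and 16217, 16304 and 16069 in Kdm1a-ifKOs. All 3 Kdm1a-ifKO libraries lay below the controls, by a small amount (log2FC -0.13, SE 0.0478, adjusted p = 0.104). The calsequestrins Casq1 and Casq2, which bind calcium inside the store, had a log2FC of 0.32 and 0.18 with overlapping groups. Atp2a1, the pump of fast skeletal fibres, had 1 to 7 counts in each library, and sarcolipin (Sln), a small inhibitor of the pump, had 6 to 20, and neither was tested.

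**Figure D3:**
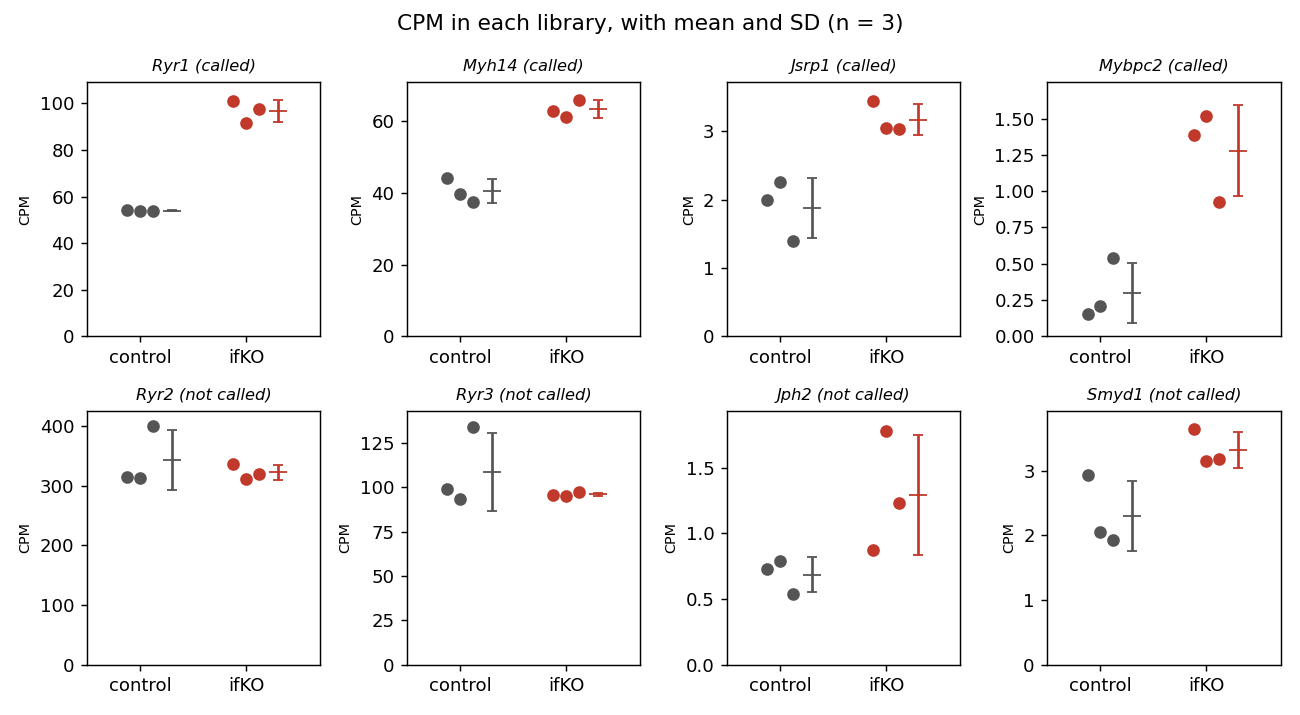
CPM of 8 genes in each of 3 control (grey) and 3 Kdm1a-ifKO (red) libraries, with the mean and SD beside the points and every y axis starting at 0. The groups are apart for the called genes Ryr1, Myh14, Jsrp1 and Mybpc2, whereas Ryr2 and Ryr3 overlap, with control replicate 3 highest, and Jph2 and Smyd1 are apart without passing the test.

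The steepest change of the list was that of Mybpc2 (ENSMUSG00000038670, GRCm38, chromosome 7 from 44501699 to 44524656, minus strand). It had 3, 4 and 10 counts in controls and 27, 30 and 18 in Kdm1a-ifKOs, so that the lowest Kdm1a-ifKO library stood above the highest control. The mean rose from 0.301 ± 0.206 to 1.28 ± 0.314 CPM (SD, n = 3), 4.20-fold, with a log2FC of 2.07 (SE 0.421, adjusted p = 8.12e-03, edgeR). Per length this was 0.331 ± 0.225 TPM in controls and 1.42 ± 0.354 TPM in Kdm1a-ifKOs (SD, n = 3), below the level of Ryr1 or Myh14 in either genotype. Leaving out 1 library at a time gave a log2FC from 1.76 to 2.76 and an adjusted p of at most 0.0376. Gm44646 overlaps it on the opposite strand and was not called (log2FC 0.21, adjusted p = 0.766). The slow skeletal paralogue Mybpc1 had 20 to 46 counts in controls and 26 to 53 in Kdm1a-ifKOs (log2FC 0.06, adjusted p = 0.939). The cardiac paralogue Mybpc3 had 3 to 10 and 3 to 6 counts and was not tested.

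Of the 9 myosin heavy chains, 6 were tested and 1 was called, Myh14 (ENSMUSG00000030739, GRCm38, chromosome 7 from 44605803 to 44670843, minus strand). Its counts were 844, 754 and 700 in controls and 1220, 1203 and 1286 in Kdm1a-ifKOs, with a wide gap between the groups. It rose 1.56-fold, from 40.4 ± 3.34 to 63.3 ± 2.53 CPM (SD, n = 3), with a log2FC of 0.65 (SE 0.0684, adjusted p = 4.69e-05, edgeR), and from 0.60 to 0.71 with 1 library left out. Myh14 thus came from the list as the one nonmuscle myosin, which is also expressed in nervous tissue, and is not a sarcomere gene. Myh7, the slow and cardiac beta myosin, had 66, 72 and 73 counts in controls and 91, 100 and 96 in Kdm1a-ifKOs. Its groups did not overlap, but it was not called (log2FC 0.40, SE 0.147, adjusted p = 0.116). Myh6, Myh7b, Myh3 and Myh8 had log2FC values of 0.17, 0.11, 0.19 and -0.69 with overlapping groups. The adult fast myosins Myh1, Myh2 and Myh4 had 1 to 11 counts in a library and were not tested. Of these, Myh1 had 1, 4 and 4 counts in controls and 5, 6 and 5 in Kdm1a-ifKOs, apart by few counts, whereas Myh2 and Myh4 overlapped.

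None of the 5 myosin light chains was called. Mylpf, the regulatory light chain of fast fibres, had 14, 15 and 17 counts in controls and 18, 19 and 25 in Kdm1a-ifKOs, apart but by few counts (log2FC 0.38, SE 0.287, adjusted p = 0.449). Myl4 and Myl1 were tested with overlapping groups (log2FC 0.27 and 0.0), whereas the ventricular Myl2 and Myl3 had 1 to 11 counts in a library and were not tested.

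No troponin was called either. The 5 tested troponins were Tnnc1, Tnni1, Tnni3, Tnnt1 and Tnnt2, with log2FC values between -0.42 and 0.37 and overlapping groups in each. Tnnt2, the cardiac troponin T, varied most within a genotype, with 60, 35 and 37 counts in controls and 13, 60 and 29 in Kdm1a-ifKOs. The fast skeletal subunits had almost no reads: Tnnc2 was at 0 in all 6 libraries, Tnni2 had 5, 1 and 1 counts in controls and 9, 6 and 6 in Kdm1a-ifKOs, and Tnnt3 had 1, 2 and 1 against 4, 3 and 4. Both Tnni2 and Tnnt3 were thus apart between the genotypes by a handful of counts, too few to test.

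Among the thin filament and Z-disc genes, with 5 of 6 tested, none was called. Acta1, the actin of skeletal muscle, had 119, 112 and 106 counts in controls and 104, 107 and 98 in Kdm1a-ifKOs, slightly lower in each (log2FC -0.17, SE 0.131, adjusted p = 0.458). Neb, which encodes the nebulin ruler of the thin filament, had 66, 62 and 69 counts in controls and 48, 54 and 50 in Kdm1a-ifKOs. It lay below the controls in every Kdm1a-ifKO library without passing the test (log2FC -0.42, SE 0.168, adjusted p = 0.143). Actn2, a Z-disc actinin that is also found at synapses, had 352, 410 and 343 counts in controls and 440, 371 and 435 in Kdm1a-ifKOs (log2FC 0.13, SE 0.0945, adjusted p = 0.440). The giant titin gene Ttn had 50, 45 and 77 counts in controls and 35 to 50 in Kdm1a-ifKOs (log2FC -0.42, adjusted p = 0.313). Its highest value was in control replicate 3, and its log2FC without that library is not given. Cardiac actin (Actc1) had at most 1 count in a library. Smyd1, a muscle methyltransferase that helps fold myosin, had 56, 39 and 36 counts in controls and 71, 62 and 62 in Kdm1a-ifKOs. The groups were apart without a call (log2FC 0.53, SE 0.201, adjusted p = 0.125), and Smyd1 overlaps the more abundant Krcc1 on the opposite strand. Muscle creatine kinase (Ckm), one of the most abundant muscle mRNAs, had 0 to 2 counts in a library.

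Counted without regard to the threshold, 8 of the 31 tested members (25.8%) had all Kdm1a-ifKO libraries above all controls, beside 15.7% of all tested genes. A further 3 lay below, beside 14.4% of all tested genes. The 8 were the 4 called genes with Jph2, Myh7, Mylpf and Smyd1, and the 3 were Atp2a2, Acta1 and Neb. Mybpc2, among the 8, entered the test through its Kdm1a-ifKO libraries.

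Genes of the same pathways outside the 44 were examined as 5 further lists with 119 genes, of which 76 were tested, 9 were upregulated (11.8%, beside 6.04% of all tested genes) and 1 was downregulated (beside 2.82% of all tested genes). The median log2FC of these 76 was 0.08. Of the 22 myogenic and cardiogenic transcription factors, 7 were tested, and 1 rose. Myod1, the master regulator of skeletal myogenesis, had 1, 1 and 3 counts in controls and 44, 32 and 49 in Kdm1a-ifKOs. It rose from 0.0887 ± 0.0628 to 2.13 ± 0.459 CPM (SD, n = 3), with a log2FC of 4.50 (SE 0.432, adjusted p = 1.78e-05, edgeR), and by 4.24 to 5.19 with 1 library left out. Myod1 passed the filter on low counts only through its Kdm1a-ifKO libraries, so its place among the tested genes depends on its rise. The related factors had almost no reads in either genotype: Myf5 was at 0 in all libraries, Myf6 had 1 count in 1 control, and Myog, which acts after Myod1 in muscle differentiation, had 1, 3 and 2 counts in controls and 3, 3 and 2 in Kdm1a-ifKOs. Gata4, Nkx2-5, Tbx5, Tbx20, Hand1, Hand2 and Pax3 were at 0 in every library. Mef2c, which muscle and neurons share, fell from 124 ± 5.10 to 98.6 ± 12.8 CPM (SD, n = 3; log2FC -0.33, adjusted p = 0.0332, edgeR), a call lost in 5 of 12 alternatives, each with a library left out (all but Kdm1a-ifKO replicate 2), at an adjusted p of up to 0.139.

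Among 33 other genes of excitation-contraction coupling, 26 were tested, 3 rose and none fell, beside the same 6.04% higher and 2.82% lower over all tested genes. Sypl2 (mitsugumin 29), a membrane protein of the muscle triad, had 106, 95 and 85 counts in controls and 529, 472 and 532 in Kdm1a-ifKOs, a rise from 5.03 ± 0.489 to 26.2 ± 1.90 CPM (SD, n = 3; log2FC 2.38, SE 0.103, adjusted p = 1.26e-08, edgeR). Atp2a3, which encodes SERCA3, had 224, 191 and 231 counts in controls and 955, 965 and 892 in Kdm1a-ifKOs, from 11.4 ± 1.23 to 48.0 ± 1.87 CPM (SD, n = 3; log2FC 2.07, SE 0.083, adjusted p = 5.15e-09, edgeR). Stac2, an adaptor of voltage-gated calcium channels, was already abundant and went from 89.9 ± 2.20 to 158 ± 9.22 CPM (SD, n = 3; log2FC 0.81, SE 0.0559, adjusted p = 9.1e-07, edgeR). The voltage sensor of skeletal muscle, Cacna1s, had 1 to 9 counts in a library, and triadin (Trdn), which links the ryanodine receptor to calsequestrin, had 0 to 2. The neuronal junctophilins Jph3 and Jph4 were not called, with log2FC values of 0.0 and 0.10.

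Of 39 other sarcomere and Z-disc genes, 23 were tested, 4 rose and none fell, again beside 6.04% and 2.82% of all tested genes. Flnc, a filamin of the Z-disc, had 68, 50 and 49 counts in controls and 93, 151 and 98 in Kdm1a-ifKOs (log2FC 0.99, SE 0.211, adjusted p = 0.0117, edgeR). Its highest library was Kdm1a-ifKO replicate 2, without which the log2FC was 0.74 (adjusted p = 0.0347). Cmya5 and Tpm1 rose by a log2FC of 0.52 and 0.18 (adjusted p = 0.034 and 0.0356, edgeR), each lost in 6 of 12 alternatives, at an adjusted p of up to 0.125 and 0.143. Both calls were lost without any one of the 3 Kdm1a-ifKO libraries or without control replicate 1 or 2. Among 12 genes of muscle metabolism Pgam2, the muscle phosphoglycerate mutase, was the 1 of 8 tested that rose (log2FC 0.47, adjusted p = 0.036, edgeR). This call was lost in 6 alternatives, DESeq2 among them, and without any 1 library other than Kdm1a-ifKO replicate 2, at an adjusted p of up to 0.151. None of the 12 tested genes of nonmuscle and smooth muscle myosin and actin was called, with a median log2FC of 0.01.

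**Figure D4:**
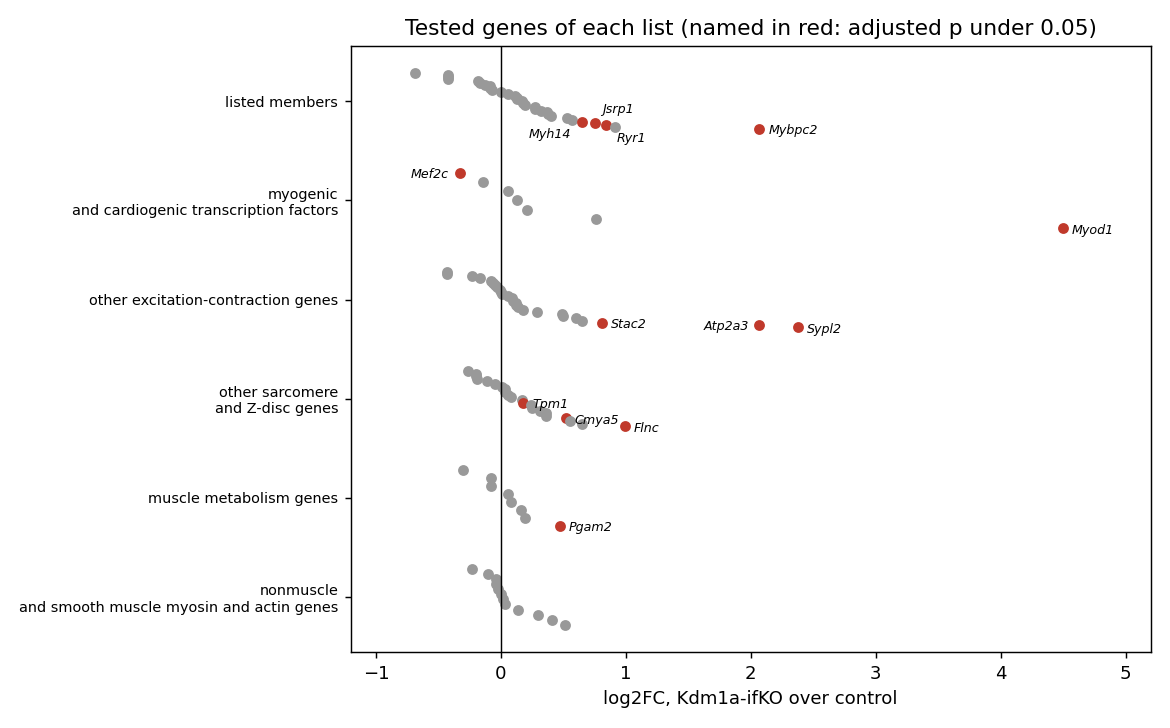
Log2 fold change of Kdm1a-ifKO over control (x axis) for the tested genes of the 44 members and of 5 further lists (rows), 1 point per gene, with genes at an adjusted p under 0.05 in red and named, and with 1 called gene of the sarcomere and Z-disc list not drawn. Most points of every list lie close to 0, and the points drawn beyond 1.5 are Myod1, Sypl2, Atp2a3 and Mybpc2.

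Vessel walls contain smooth muscle, so the markers of other cells were read beside these values. The 13 markers of smooth muscle and pericytes summed to 258 to 264 CPM in controls and to 263, 353 and 267 CPM in Kdm1a-ifKOs. Of the 12 tested, Pdgfrb was called (34.0 ± 0.850 to 44.4 ± 4.11 CPM, SD, n = 3; log2FC 0.39, adjusted p = 0.0049, edgeR). The contractile genes of smooth muscle, Acta2, Myh11 and Tagln, were high in Kdm1a-ifKO replicate 2 alone, where Acta2 was 44.5 CPM against 16.4 to 20.2 CPM elsewhere. Without that library the log2FC was 0.88 for Ryr1, 0.67 for Myh14, 1.92 for Mybpc2 (adjusted p = 0.0246, edgeR) and 4.66 for Myod1. These 3 members were then called, beside 5.08% of all genes, and Jsrp1 was not (log2FC 0.78, adjusted p = 0.0651). Jph2 and Actn3 were highest in this library, and the part of vascular cells in their values was not tested. Astrocyte markers summed to 2670 to 2850 CPM in controls and 3100 to 3390 CPM in Kdm1a-ifKOs, with Slc1a3, Aldoc and S100b of 8 called higher. Microglia markers summed to 342 to 370 CPM and 390 to 499 CPM, with Cx3cr1, Tmem119 and Csf1r of 8 called higher.

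Markers of excitatory neurons summed to 8100 to 8450 CPM in controls and 7810 to 8600 CPM in Kdm1a-ifKOs, with Neurod6 lower. Those of interneurons summed to 875 to 945 and 844 to 879 CPM, with Vip and Npy lower. Endothelium (246 to 258 and 240 to 298 CPM), oligodendrocytes (5290 to 5840 and 4900 to 6380 CPM), meninges and fibroblasts (170 to 198 and 135 to 303 CPM) and choroid plexus (11.9 to 39.2 and 6.27 to 13.9 CPM) had no marker called. Tissue next to the hippocampus was read too. Markers of the thalamus and habenula summed to 151 to 154 CPM in controls and 146 to 165 CPM in Kdm1a-ifKOs, with Prkcd higher and Slc17a6 and Nwd2 lower. Striatal markers summed to 95.4 to 101 and 113 to 121 CPM, with Ppp1r1b and Penk higher. No marker of any list was at 0 in all libraries. The part of astrocytes, microglia and striatal tissue in the rise of the members was not tested.

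By position, 3 of the 4 called members (Ryr1, Mybpc2 and Myh14) lie on chromosome 7, which holds 10 of the 44 members (22.7%) and 8.2% of all tested genes. Mybpc2 and Myh14 are transcribed in the same direction, and 81.1 kb separates them. Ryr1 is 15.38 Mb from Mybpc2, whereas Myod1 lies on the same chromosome, 1.85 Mb from Mybpc2 and 1.71 Mb from Myh14. The nearest tested gene on each side that does not overlap a called member was taken, and those given here were not called. Beside Ryr1 these were Map4k1 (log2FC 0.02, adjusted p = 0.974) and Rasgrp4 (0.29, adjusted p = 0.451). Beside Mybpc2 they were Fam71e1 (log2FC -0.18, adjusted p = 0.557) and Pold1 (-0.05, adjusted p = 0.848), and on 1 side of Myh14 it was Zfp473 (log2FC 0.88, adjusted p = 0.131). Amh and Oaz1 beside Jsrp1 had log2FC values of 0.04 and 0.05 (adjusted p = 0.938 and 0.694). Within 250 kb of Mybpc2, 21 genes were tested, of which Myh14 and the kinase gene Vrk3 were upregulated. Within 250 kb of Ryr1 there were 25 tested genes, with 3 higher and 1 lower among Capn12, Spred3, Catsperg1 and Spint2, and around Jsrp1 there were 28, with Tmprss9 and Gng7 higher. These counts stand beside 6.04% higher and 2.82% lower over all tested genes. The windows hold few genes, and their counts were not tested.

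In the ChIA-PET library, CTCF, a DNA-binding protein that marks the ends of many chromatin loops, joined the region of Mybpc2 to Myh14. A loop was counted for a gene when an anchor lay within 10 kb of the gene body, and its strength is the number of paired-end tags (PETs) between the anchors. With a single library there is no replicate and no test. Of the 44 members, 29 had a loop (65.9%), beside 56.9% of 16752 tested genes with a position. Ryr1 had 12 loops with 49 PETs in all, Jsrp1 14 with 104, Mybpc2 21 with 125 and Myh14 17 with 110. A set of 7 loops with 3 to 12 PETs each, 44 PETs in all, ran from within 10 kb of Mybpc2 to Myh14 over 122.7 to 155.9 kb. Some anchors on the Mybpc2 side lay outside its body, at Fam71e1 or Spib beside it. Fam71e1 was not called (log2FC -0.18, adjusted p = 0.557, edgeR), so these loops are not particular to the 2 upregulated genes. Of the 8 other tested genes at the far ends of the loops of Mybpc2, Myh14 was the 1 called, and of 11 for Myh14 it was Mybpc2. Ryr1 had 13 such partners, with Spint2 higher and 1 lower, and Jsrp1 had 9, with Gng7 and Tmprss9 higher. Over all tested genes 6.04% were higher and 2.82% lower, and with so few partners no more is read from these counts. The loops come from neurons with intact Kdm1a, so they say nothing of loops after its loss.

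**Figure D5:**
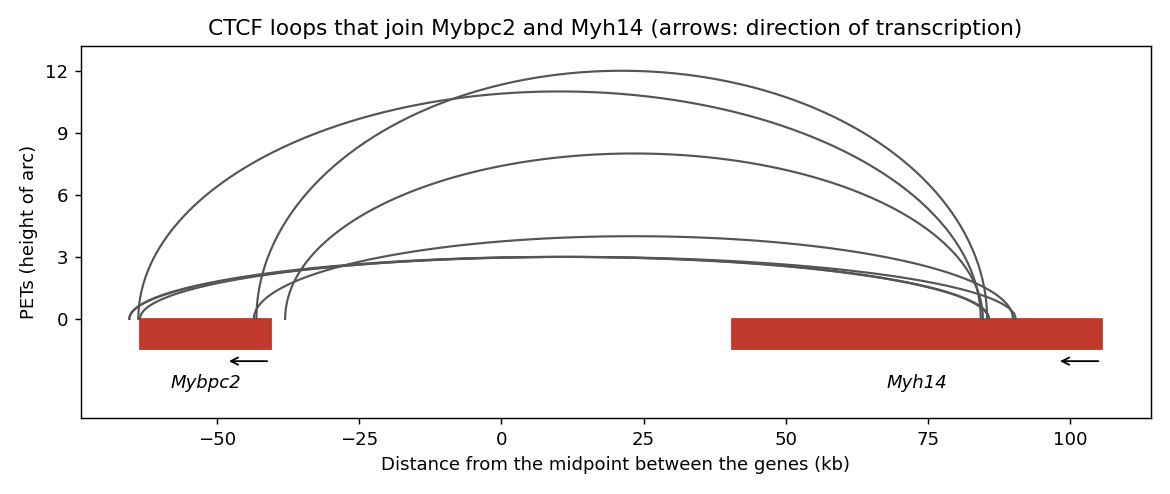
CTCF loops between Mybpc2 and Myh14 in neurons with intact Kdm1a, as arcs between anchor centres (x axis, distance in kb from the midpoint between the genes) with the height of an arc showing its PETs (y axis). Red bars are the gene bodies and arrows the direction of transcription. The strongest of the 7 loops, with 12 PETs, runs from the body of Mybpc2 to the 5′ part of the body of Myh14.

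Anchors of these loops, which lie at or near the 2 upregulated genes, are shown where they hold the core letters of the CTCF motif. The motif was searched on both strands as CCA, AG and GGC in this order, with 2 bases of any kind between them. Sequences were read from GRCm38 in the motif's own direction, with the match in capitals.

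chr7:44527660-44527689, minus strand, in an exon of Spib, 3.0 kb from the start of Mybpc2: gacatctcaCCAGCAGGTGGCgctgtctac

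chr7:44650202-44650231, minus strand, in an intron of Myh14, 20.6 kb from its start: cgccaccatCCACAAGGTGGCgccagttct

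Both matches read on the minus strand, as do both genes. The motif was in 4 of the 14 anchors that join Mybpc2 and Myh14, since overlapping anchors share these matches. It was in 35.4% of 37013 anchors of like length (735 to 2105 bases) and in 12.1% of windows of the same length 20 kb to the right of them. Promoters of 300 bases held it in 2.43%, but they are shorter, so this share cannot be compared with the others. The match is a description of the sequence and not of bound protein.

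The promoters of the called members are shown because Myod1, which also rose, belongs to the E-box binding factors. A link between Myod1 and the called members was not tested. An E-box is the palindromic pattern CANNTG, and Myod1 is known for sites such as CAGCTG and CAGGTG. RefSeq (GRCm38.p6) gave 40 promoters for 35 of the members, each from 250 bases before to 50 bases after the start of transcription. They are written 5′ to 3′ on the strand of the gene, with every E-box in capitals. Jsrp1 is named only.

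Ryr1, chr7:29125102-29125401, minus strand: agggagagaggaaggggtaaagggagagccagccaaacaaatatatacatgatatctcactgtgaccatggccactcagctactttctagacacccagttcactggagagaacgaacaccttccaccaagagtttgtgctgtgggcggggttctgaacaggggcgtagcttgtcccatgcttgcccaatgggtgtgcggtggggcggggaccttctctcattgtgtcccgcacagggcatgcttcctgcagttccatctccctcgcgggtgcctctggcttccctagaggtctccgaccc

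Mybpc2, chr7:44524620-44524919, minus strand: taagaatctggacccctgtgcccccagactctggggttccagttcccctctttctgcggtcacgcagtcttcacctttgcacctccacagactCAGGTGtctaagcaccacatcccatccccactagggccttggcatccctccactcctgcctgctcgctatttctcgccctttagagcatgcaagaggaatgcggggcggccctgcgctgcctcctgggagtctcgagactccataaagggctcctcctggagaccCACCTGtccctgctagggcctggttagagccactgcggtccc

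Myh14, chr7:44670794-44671093, minus strand: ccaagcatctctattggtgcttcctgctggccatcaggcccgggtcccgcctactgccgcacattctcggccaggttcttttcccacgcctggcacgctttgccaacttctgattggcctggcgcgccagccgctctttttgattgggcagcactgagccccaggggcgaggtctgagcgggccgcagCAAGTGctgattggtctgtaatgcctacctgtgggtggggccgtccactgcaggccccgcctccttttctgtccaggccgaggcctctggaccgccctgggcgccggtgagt

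The promoter of Mybpc2 held 2 E-boxes, both of the kind CAGGTG, 1 on each strand. That of Myh14 held 1, CAAGTG, with 4 matches to CCAAT, and that of Ryr1 held none in these letters. E-boxes of any kind were in 72.3% of 32851 mouse promoters, CAGGTG in 20.2% and CAGCTG in 16.3%. Among the 40 promoters of members, CAGGTG was in 14 and CAGCTG in 16, beside 6 with the MEF2 motif (3.19% of all promoters) and 4 with a CArG box (1.63% of all), the element of serum response factor. All motifs were searched on both strands. These are counts of letters in a short window, and several members have more than 1 promoter entry. The 40 promoters are those of listed muscle genes, called or not, so their motif counts say nothing of the loss of Kdm1a.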

How the data were processed

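Hippocampal poly-A RNA-seq of 3 control and 3 Kdm1a-ifKO mice and 1 CTCF ChIA-PET library were used. The authors made the raw counts from reads trimmed in cutadapt 1.18 and aligned to mm10 in HISAT2 2.1.0, counted per Ensembl gene with HTSeq 0.11.1 (versions from the submitters' processing notes), and deposited them without normalization. The authors made the PET counts of loops with ChIA-PIPE and deposited loops of at least 3 PETs. Here, counts were tested in edgeR 4.0.16 (R 4.3.3; filterByExpr, TMM, robust quasi-likelihood test on genotype alone, Benjamini-Hochberg over 16799 genes, threshold 0.05). CPM used TMM library sizes and TPM the summed exon length of GENCODE M21 (GRCm38). The test was run on simulated data first. Members and lists were chosen with earlier results of these data known. Members were described in full when called, when the groups did not overlap at 1 CPM or more in a group, or when among the 8 highest by TPM, and genes of other lists when called. A called gene of these lists and a neighbour of a called member are not reported here. Alternatives were DESeq2 1.42.0, 2 other normalizations, 2 other filters, a replicate block and each library left out.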

Additional observations from a re-analysis of the deposited data

How the results depend on the processing

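Across 12 alternatives, the number of members called higher was 3 or 4, always with Ryr1, Myh14 and Mybpc2, and the number called lower was 0. The median log2FC of tested members stayed between 0.15 and 0.22 and that of Kdm1a between -1.09 and -1.04. Genes of the further muscle lists called lower, 1 in the main analysis, were 3 with DESeq2, 2 with at least 10 counts and 5 without a filter on low counts, and between 0 and 3 with a library left out, and the cause was not tested. With a library left out, the log2FC of Ryr2 lay between -0.15 and 0.04 and that of Ryr3 between -0.28 and 0.0, and the highest value of each, without control replicate 3, had another sign than the main one. Of 300 comparisons of single genes under alternatives, 268 kept direction and side of the threshold, 30 lost the call and 2 changed sign. With the replicate number as a block, 3 members and 7 genes of the further lists were called higher, Jsrp1 being lost (adjusted p = 0.0609, edgeR). Same-numbered samples did not deviate together (correlations -0.0326, -0.0911 and -0.148), whereas samples of different numbers gave -0.0918 to 0.162. Controls were littermates of Kdm1a-ifKOs, but which mice shared a litter or a preparation is not given. These correlations cannot exclude such sharing. Members with a loop numbered 20 to 27 under other rules for anchors or PETs, and 25 members reached 1 CPM in controls. Genes with under about 10 counts in a library are at the limit of this depth. P-values rest on the spread between these 3 mice per genotype, which edgeR and DESeq2 draw toward that of other genes.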

Other observations

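Besides Mybpc2 and Myh14, 2 other pairs of neighbouring members were joined by CTCF loops in the neurons with intact Kdm1a, and neither pair was upregulated in Kdm1a-ifKOs. Tnni1 and Tnnt2, which encode the slow skeletal troponin I and the cardiac troponin T and lie 25.4 kb apart on chromosome 1, shared 3 loops with 17 PETs, and their log2FC values were 0.13 and -0.42 (adjusted p = 0.661 for each, edgeR). Tnni3 and Tnnt1, the cardiac troponin I and the slow skeletal troponin T, lie 1.9 kb apart on chromosome 7 and shared 2 loops with 79 PETs, 1 of them with 75, and their log2FC values were 0.37 and -0.09 (adjusted p = 0.506 and 0.881, edgeR). The skeletal myosin cluster on chromosome 11 (Myh3, Myh2, Myh1, Myh4 and Myh8) had loops at Myh3 alone, 18 with 393 PETs, and none of its genes was called.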
